A study of Mus musculus with 47 samples.

Results

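The genes described here are 34 interferon-stimulated genes, taken by symbol from a table of gene expression in sorted mouse mammary epithelium. The list was made with earlier results of these data known, so it is not independent of them. All 34 were found among the 21980 gene symbols used. The table writes symbols in capitals: the sensors DDX58, IFIH1, DHX58, ZBP1 and EIF2AK2; the transcription factors STAT2, IRF9, IRF7 and IRF1; IFIT1, IFIT2 and IFIT3; OAS1A, OAS1G, OAS2, OASL1 and OASL2; the effectors MX1, MX2, RSAD2, BST2 and RTP4; ISG15 with USP18 and TRIM25; PARP9, PARP14 and DTX3L; and IFI27, IFI35, IFI44, XAF1, LGALS3BP and CXCL10. The usual mouse spelling is used below. RNA was sequenced from ovariectomized FVB mice, in 47 libraries from 20 mice. The 3 fractions had been separated by flow cytometry and carry the labels luminal mature (LM), luminal progenitor (LP) and mammary stem cell (MSC). Treatment lasted 14 days. The control group is labelled only as sham, and EP mice got estradiol and progesterone together. A further group received telapristone acetate on top of EP (EP+TPA), and the last received mifepristone, RU486, on top of EP (EP+RU486). All mice, sham included, lacked ovaries. Each group held 4 mice per fraction, except EP in LM with 3. Each treatment was given to different mice, and most mice gave more than 1 fraction. No group with estradiol alone, progesterone alone or an antagonist alone was analysed here, and doses are not in the labels. Values are taken to be FPKM, a unit inferred from the values and from the tools that the submitters name, and were rescaled within sets of libraries whose values share a common adjustment. A difference is a difference of mean log2(value + 1), which compresses the changes of genes near 0. A gene is said to rise or fall where limma's Benjamini-Hochberg adjusted p, over all genes tested in that comparison, was under 0.05.

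Interferons bind receptors on the cell surface and activate Janus kinases. These phosphorylate transcription factors, among them Stat2, which joins Irf9 in a complex that binds interferon-stimulated response elements (ISRE). A further element of interferon-induced genes is the gamma-activated site (GAS). The induced genes include sensors of viral nucleic acid, proteins that block viral replication, the ubiquitin-like protein Isg15 with the enzymes around it, and feedback regulators. Both added compounds are steroids that antagonize the progesterone receptor, and mifepristone also blocks the glucocorticoid receptor.

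RefSeq promoter windows of build GRCm38.p6, from 250 bases before to 50 bases after a start site, were matched by symbol to 24 of the 34 members. The expression table was made on another build, mm9. Windows were not matched for Dhx58, Zbp1, Oas2, Mx1, Mx2, Rtp4, Usp18, Parp9, Parp14 and Ifi27. The ISRE core (GAAA, any 2 bases, GAAA) was searched on both strands, and so were the GAS letters TTCNNNGAA. The ISRE core occurred in 12 of the 24 members (Bst2, Cxcl10, Ddx58, Eif2ak2, Ifih1, Ifit1, Ifit3, Isg15, Oas1a, Oas1g, Rsad2 and Stat2), and in 3.99% of the 27025 gene symbols with a window. The GAS letters occurred in 6 of 24 (Bst2, Eif2ak2, Ifi35, Ifit2, Irf1 and Oas1a), and in 9.55% of symbols. The palindromic elements of the progesterone and glucocorticoid receptors (AGAACA and TGTTCT with 3 bases between) and of the estrogen receptor (AGGTCA and TGACCT with 3 bases between) occurred in 0 of the 24, and in 0.0111% and 0.0148% of symbols. The stretches of 120 bases below are shown because their genes carry results that follow. Each runs 5′ to 3′ along its gene, capitals mark ISRE cores and GAS letters, and positions count back from the start site.
Bst2, chr8:71537543-71537662, minus strand, bases -190 to -71: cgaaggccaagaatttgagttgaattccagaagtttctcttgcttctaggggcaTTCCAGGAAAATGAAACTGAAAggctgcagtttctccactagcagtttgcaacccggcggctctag
Isg15, chr4:156200829-156200948, minus strand, bases -130 to -11: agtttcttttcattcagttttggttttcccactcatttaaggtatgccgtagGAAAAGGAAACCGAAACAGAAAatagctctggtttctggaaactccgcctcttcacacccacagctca
Ifit1, chr19:34640739-34640858, plus strand, bases -150 to -31: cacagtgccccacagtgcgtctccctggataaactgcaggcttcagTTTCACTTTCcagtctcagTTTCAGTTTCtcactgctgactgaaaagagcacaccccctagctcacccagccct
Oas1a, chr5:120907526-120907645, minus strand, bases -120 to -1: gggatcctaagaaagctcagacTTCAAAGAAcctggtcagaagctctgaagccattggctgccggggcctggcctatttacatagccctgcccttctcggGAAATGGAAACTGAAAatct
Oas1g, chr5:120887614-120887733, minus strand, bases -120 to -1: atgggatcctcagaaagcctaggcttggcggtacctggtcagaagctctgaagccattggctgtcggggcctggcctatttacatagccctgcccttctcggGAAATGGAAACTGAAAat
Irf1, chr11:53769864-53769983, plus strand, bases -150 to -31: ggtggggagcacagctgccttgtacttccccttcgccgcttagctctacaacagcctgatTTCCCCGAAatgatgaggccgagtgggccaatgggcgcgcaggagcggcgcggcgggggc

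In the Bst2 stretch the GAS letters overlap the first of a pair of ISRE cores that overlap each other. Isg15 carries 3 overlapping cores, and Ifit1 carries 2 separate cores on the opposite strand. The Oas1a and Oas1g stretches matched at 108 of 118 aligned bases. Their transcripts are close too: 47.6% of the 75-base windows of Oas1a, the read length in the labels, also occur in transcripts of other genes, most of all Oas1g, and 44.6% of those of Oas1g do. The share was 41.1% for Ifit3 and 12.4% for Rtp4, and at most 5.19% for the other members. Values of Oas1a, Oas1g and Ifit3 may therefore mix reads of near copies and are uncertain.

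Markers of mature luminal cells moved with treatment in LM. The 6 markers, among them the receptor genes Esr1, Pgr and Prlr, summed to 362 to 1005 in sham, 148 to 382 with EP, 0.586 to 36.0 with EP+TPA and 0.488 to 2.06 with EP+RU486, so the label luminal mature is not borne out by these markers in the antagonist libraries. The 6 progenitor markers summed in LM to 2147 to 7232 in sham and 173 to 512 with EP. They summed there to 230 to 4700 with EP+TPA and 4460 to 5730 with EP+RU486. In LP they summed to 334 to 1831 with EP and 3269 to 7525 in the other groups. The LM sham sums were mostly Ltf and Lcn2, and EP lowered 3 of the 6 markers in LM and raised 0. Elf5 was 16.9 and 18.6 in LM EP mice 306 and 327, above all LM sham libraries, and 0 in mouse 311. Kit lay above all LM sham libraries in mouse 306, within their range in mouse 327 and at 0 in mouse 311. The 6 proliferation markers summed in LM to 2.02 to 3.20 in sham, 34.0 to 83.2 with EP, 9.08 to 56.4 with EP+TPA and 8.16 to 21.1 with EP+RU486, and in LP to 6.98 to 8.19, 51.2 to 81.5, 10.1 to 12.6 and 13.4 to 21.9 in that order. LM EP+TPA mouse 332 lay within the EP ranges of both sums, at 230 for progenitor and 56.4 for proliferation markers. It set the EP+TPA low of the first sum and high of the second. The part of these shifts in the results below was not tested, and in bulk RNA fewer cells of a type and less RNA per cell cannot be told apart. The LM libraries held 2.59 to 91.7 in summed leukocyte markers (12 genes), the LP libraries 7.34 to 66.2 and the MSC libraries 6.63 to 71.6. Among them Lyz2 reached 70.0 in a library, Coro1a 13.4 and Ptprc, the common leukocyte antigen, 2.81. Of the pair listed as plasmacytoid dendritic markers, Siglech reached 1.05, and it lay at 0.024 to 0.056 in LM sham. Ly6d reached 1382, with 514 to 1382 in LM sham and 0 to 43.1 in LM with either antagonist. The mature luminal markers were low in those antagonist libraries too. The pair did not move together, so Ly6d is not read here as a measure of dendritic cells. Single libraries stood apart. The same library, LM EP+TPA mouse 332, was the lowest LM library for 17 of 32 members tested, and LM EP+TPA mouse 312 the highest for 12. LP EP+TPA mouse 336 was the highest LP library for 12 of 31. MSC sham mouse 326 and EP mouse 327 listed 7 and 10 members at 0. Levels are not compared between LM and the other fractions, because the deposited values had been set to a common mean within each set.

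**Figure D1:**
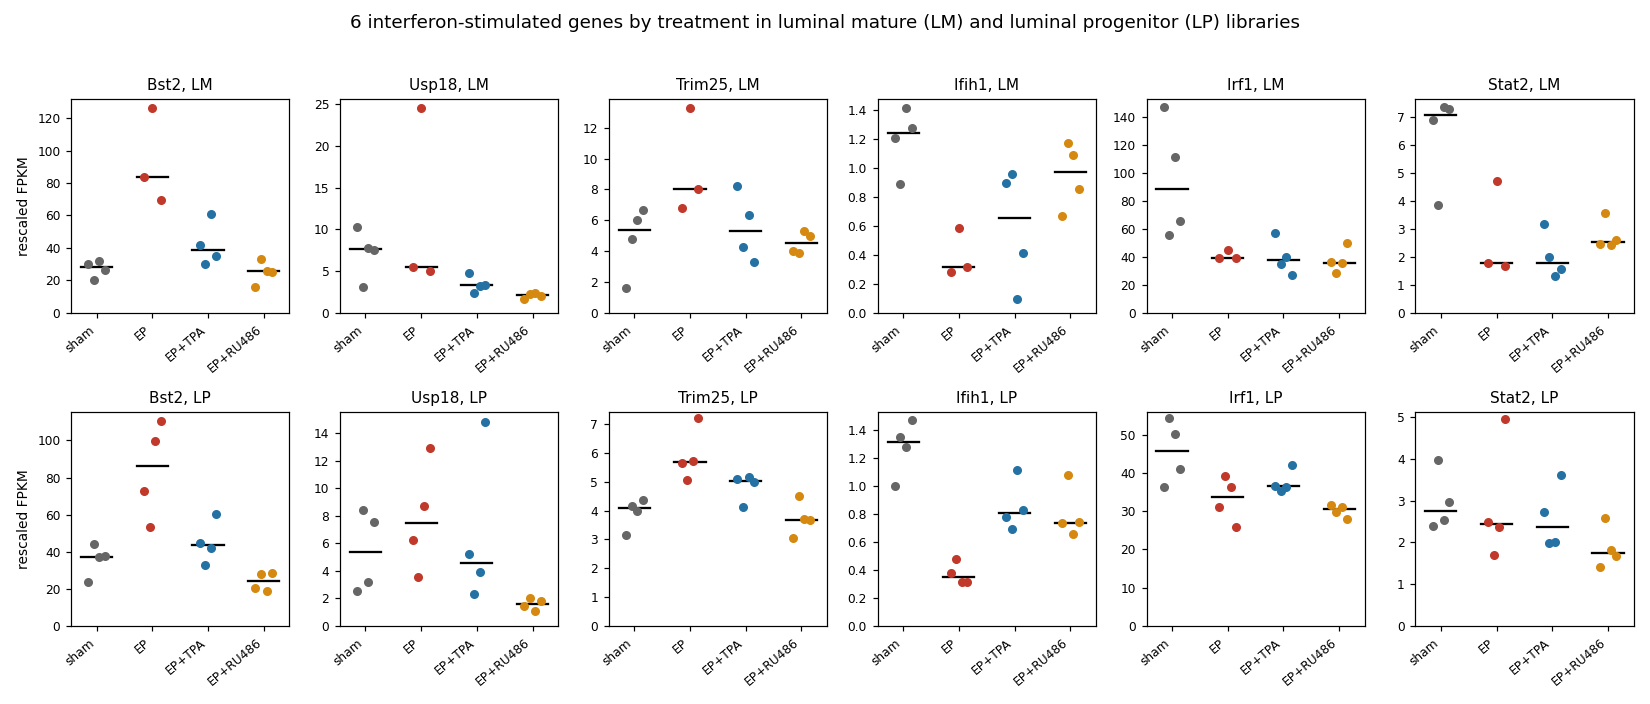
Rescaled FPKM (vertical axes) of 6 members in LM and LP by treatment (horizontal axes); points are libraries of separate mice and bars are medians. Bst2 lies at 69.3 to 126 with EP in LM, above every other LM library, and Ifih1 lies at 0.312 to 0.474 with EP in LP, below every other LP library.

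In LM, EP raised 1 of the 32 members tested, Bst2, and lowered 6, against 19.5% of all 11874 genes called in this comparison, 10.3% higher and 9.17% lower. The 6 were the sensors Ifih1, Dhx58 and Zbp1, the transcription factors Stat2 and Irf1, and Ifit2. The median difference was -0.27 over the members, 24 of 32 of them below 0, and -0.01 over all genes. Without rescaling, 2 rose and 3 fell, against 20.3% of all genes, whose median was then 0.14. None of the 4 OAS genes tested was called. The count of 7 fell to 1 without EP mouse 306 or EP mouse 327, to 2 without sham mouse 310, and to 3 without sham mouse 305 or sham mouse 326, and Bst2 was called in each of those fits. Over all fits that left out 1 library, 7.49% to 23.9% of all genes were called.

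Bst2 encodes tetherin, a membrane protein that holds budding virus at the cell surface. In LM it stood at 29.8, 20.3, 32.1 and 26.2 in sham and at 83.9, 126 and 69.3 with EP. With EP+TPA the values were 41.6, 29.7, 61.1 and 35.1, and with EP+RU486 15.7, 33.1, 25.7 and 25.3. The EP libraries overlapped none of the other 3 groups. Bst2 rose by 1.72 with EP against sham (SE 0.28, adjusted p = 0.00108). Against EP it fell by 1.14 with EP+TPA (SE 0.28, adjusted p = 0.0344) and by 1.86 with EP+RU486 (SE 0.28, adjusted p = 0.00119). All 3 comparisons share the EP libraries. The call with EP+TPA was lost without EP mouse 306 or 311, without EP+TPA mouse 312, 328 or 336, without a filter on low values or in a fit of the 2 groups alone (adjusted p up to 0.155). Here and below, the p given for a lost call is the largest over all alternatives run.

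LP gave Bst2 a like pattern. Its values were 23.8, 44.0, 37.0 and 37.6 in sham, 72.5, 53.1, 99.9 and 111 with EP, 44.7, 32.5, 42.0 and 60.4 with EP+TPA and 20.4, 28.2, 18.6 and 28.4 with EP+RU486. EP lay above sham and above EP+RU486 without overlap, and 1 EP library lay below 1 EP+TPA library. Bst2 rose by 1.19 with EP (SE 0.25, adjusted p = 0.00174), and against EP it fell by 0.87 with EP+TPA (SE 0.25, adjusted p = 0.0215) and by 1.74 with EP+RU486 (SE 0.25, adjusted p = 0.000185). The LP call with EP+TPA was lost without EP mouse 322 or 327, without EP+TPA mouse 323 or 328 or in a fit of the 2 groups alone (adjusted p up to 0.0743). In both luminal fractions the rise with EP and the fall with EP+RU486 were called under every alternative run.

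Ifih1 (MDA5), which detects long double-stranded RNA, fell with EP in both luminal fractions. In LP it stood at 0.997, 1.35, 1.28 and 1.47 in sham, 0.377, 0.474, 0.312 and 0.316 with EP, 0.780, 0.695, 1.12 and 0.830 with EP+TPA and 0.732, 1.08, 0.655 and 0.740 with EP+RU486. The EP libraries lay below the other 12. Ifih1 fell by 0.73 with EP (SE 0.11, adjusted p = 0.000193), and against EP it rose by 0.43 with EP+TPA (adjusted p = 0.0135) and by 0.39 with EP+RU486 (adjusted p = 0.0218). In LM it stood at 1.20, 0.889, 1.41 and 1.27 in sham, 0.279, 0.586 and 0.315 with EP, 0.892, 0.953, 0.0934 and 0.410 with EP+TPA and 0.669, 1.17, 1.09 and 0.850 with EP+RU486. Sham and EP did not overlap there, and the fall was 0.66 (SE 0.20, adjusted p = 0.0355). That call was lost without sham mouse 305, 310 or 326, without EP mouse 306 or 327, with a pseudocount of 0.1 or without rescaling (adjusted p up to 0.131). In LP the rise with EP+TPA was lost without EP+TPA mouse 328 (adjusted p = 0.0507), and the rise with EP+RU486 without EP+RU486 mouse 308 or without EP mouse 322 (adjusted p up to 0.0774).

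Zbp1, a sensor of Z-form nucleic acid, fell by 1.72 in LM with EP (adjusted p = 0.0181); its range was 7.19 to 11.2 in sham and 0.956 to 2.97 with EP. Dhx58 (LGP2), a regulator of the RNA sensors, fell by 1.16 there (adjusted p = 0.0383); its range was 1.89 to 7.24 in sham and 1.05 to 2.00 with EP. The Zbp1 call was lost without EP mouse 306 or 327 (adjusted p up to 0.0891), and the Dhx58 call without sham mouse 305, 310 or 326, without EP mouse 306, 311 or 327, without rescaling or without a filter on low values (adjusted p up to 0.132). In LP the adjusted p was 0.4 for Zbp1 and 0.154 for Dhx58. Ddx58 (RIG-I) and Eif2ak2 (PKR), a kinase that halts translation on sensing double-stranded RNA, were called in none of the 18 treatment comparisons.

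Stat2 and Irf1 fell in LM with EP and lay below sham with either antagonist. Stat2 was 6.87, 3.84, 7.34 and 7.28 in sham, 1.76, 4.72 and 1.66 with EP, 3.15, 1.99, 1.31 and 1.55 with EP+TPA and 2.45, 3.56, 2.42 and 2.59 with EP+RU486. The antagonist libraries lay below all 4 sham libraries, and 1 EP library did not. Against sham, Stat2 fell by 1.04 with EP (SE 0.29, adjusted p = 0.0208), by 1.29 with EP+TPA (SE 0.27, adjusted p = 0.00407) and by 0.94 with EP+RU486 (SE 0.27, adjusted p = 0.0208). The call with EP was lost without EP mouse 306 or 327, without sham mouse 310 or 326 or in a fit of the 2 groups alone (adjusted p up to 0.122), and that with EP+RU486 without EP+RU486 mouse 308 or 329 or without sham mouse 310 or 326 (adjusted p up to 0.0638). In LP Stat2 ranged from 1.41 to 4.94 and gave no call.

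Irf1, a transcription factor with GAS letters in its promoter (above), was 147, 55.4, 111 and 65.3 in LM sham and 39.1, 44.8 and 38.8 with EP. It was 57.1, 34.8, 39.8 and 26.6 with EP+TPA and 35.8, 28.4, 35.4 and 50 with EP+RU486. The sham libraries lay above all others, except that EP+TPA mouse 312 exceeded the lowest of them. Against sham, Irf1 fell by 1.09 with EP (adjusted p = 0.0243), by 1.18 with EP+TPA (adjusted p = 0.0113) and by 1.24 with EP+RU486 (adjusted p = 0.0069). The call with EP was lost without sham mouse 305 or 310, without EP mouse 306 or 327 or without rescaling (adjusted p up to 0.0902). Against EP the differences were -0.10 and -0.15. In LP, Irf1 was 36.3, 54.5, 50.2 and 41.1 in sham, 31.1, 39.2, 36.3 and 25.8 with EP, 36.7, 35.2, 36.3 and 42.0 with EP+TPA and 31.5, 29.9, 31.0 and 28.03 with EP+RU486. It fell there by 0.45 with EP (adjusted p = 0.0215), and by 0.56 with EP+RU486 against sham (adjusted p = 0.017). The LP call with EP was lost without sham mouse 305 or 310, without EP mouse 306 or 327, without rescaling or in a fit of the 2 groups alone (adjusted p up to 0.374), and the call with EP+RU486 without sham mouse 310 or without rescaling (adjusted p up to 0.0703).

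Irf9, the DNA-binding partner of Stat2, was 15.8, 28.02, 24.02 and 27.1 in LP sham, 11.4, 15.3, 10.4 and 17.3 with EP, 27.3, 18.8, 21.4 and 18.9 with EP+TPA and 12.2, 14.1, 11.8 and 17.2 with EP+RU486. The EP+TPA libraries lay above every EP and every EP+RU486 library. Irf9 fell by 0.75 with EP (SE 0.19, adjusted p = 0.00733), rose by 0.64 with EP+TPA against EP (adjusted p = 0.0302) and fell by 0.72 with EP+RU486 against sham (adjusted p = 0.0265). The fall with EP was lost without rescaling (adjusted p = 0.0804), the rise with EP+TPA without EP mouse 306 or 322, without EP+TPA mouse 312 or 328, without rescaling or in a fit of the 2 groups alone (adjusted p up to 0.114), and the fall with EP+RU486 without EP+RU486 mouse 304, 308 or 324, without sham mouse 305, 310 or 326 or without rescaling (adjusted p up to 0.0913). EP+RU486 against EP gave 0.03. In LM, Irf9 was 28.8, 18.3, 24.7 and 30.1 in sham, 10.5, 18.7 and 13.0 with EP, 28.5, 16.9, 9.34 and 14.0 with EP+TPA and 14.5, 17.8, 19.7 and 19.0 with EP+RU486, with an adjusted p of 0.0599 for EP against sham.

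Irf7, which amplifies type I interferon production, was called in no treatment comparison. In LP it was 11.5, 25.1, 15.7 and 35.4 in sham, 5.26, 12.9, 2.66 and 19.3 with EP, 26.1, 9.20, 17.2 and 33.0 with EP+TPA and 4.67, 6.62, 5.03 and 10.6 with EP+RU486. The EP+RU486 libraries lay below all sham libraries, and sham, EP and EP+TPA overlapped. In LM it was 13.6, 12.9, 9.09 and 22.2 in sham, 6.28, 10.03 and 8.32 with EP, 32.5, 15.9, 2.82 and 30.8 with EP+TPA and 12.03, 14.6, 15.3 and 17.1 with EP+RU486, with the EP+TPA library of mouse 332 far below the other 3.

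In LP, EP lowered 7 of 31 members tested and raised 2, against 32.4% of 11402 genes called (16.2% higher and 16.1% lower), so the members' share, 29%, was near that of all genes. Those that fell were Ifih1, Irf1, Irf9, Oasl1, Oasl2, Rtp4 and Ifi27, and those that rose were Bst2 and Trim25. The median was -0.47 over the members, 23 of 31 of them below 0, and 0.005 over all genes. Without rescaling the median of all genes was 0.25 and that of the members -0.23, and 3 fell and 3 rose, against 42.1% of all genes.

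**Figure D2:**
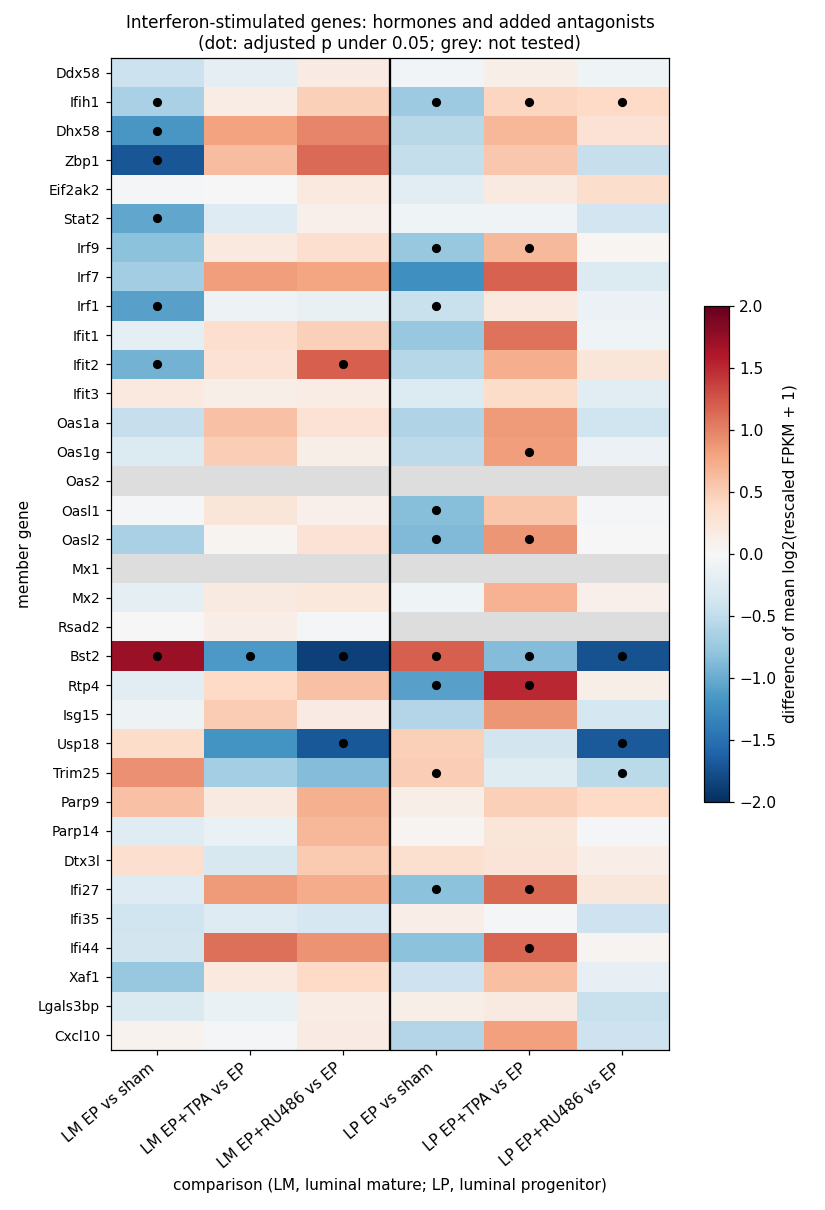
Differences of mean log2(rescaled FPKM + 1) for each member (rows, by role) in 6 comparisons (columns); dots mark an adjusted p under 0.05 and grey cells members that were not tested. Bst2 carries a dot in all 6 columns, and the LP column for EP+TPA against EP holds 7 dotted members that are higher and 1 that is lower.

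Adding telapristone to EP raised 7 of 31 members in LP and lowered 1, Bst2, against 18.4% of all genes called, 7.79% higher and 10.6% lower. The 7 were Ifih1, Irf9, Oas1g, Oasl2, Rtp4, Ifi27 and Ifi44. The median over the members was 0.55, with 26 of 31 above 0. The count of 8 fell to 3 without EP+TPA mouse 328, to 4 without EP mouse 322, and to 5 without EP mouse 306 or EP+TPA mouse 312, and 12.1% to 23.8% of all genes were called over the fits that left out 1 library. Adding mifepristone raised 1, Ifih1, and lowered Bst2, Usp18 and Trim25, against 20.9% of genes called (9.02% higher and 11.8% lower), with a median of -0.09. Both comparisons use the same 4 EP libraries. Fibroblast markers in LP summed to 112 to 216 with EP, above 20.4 to 90.7 with EP+TPA and at most 50.6 with EP+RU486, without overlap. Of the 6 mature luminal markers, 5 fell with EP+TPA and 6 with EP+RU486. The part of these markers in the members' differences was not tested.

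Rtp4, an interferon-induced chaperone of membrane receptors, was 3.99, 11.5, 9.86 and 11.6 in LP sham, 2.78, 5.37, 1.95 and 4.83 with EP, 15.6, 9.26, 10.8 and 12.51 with EP+TPA and 2.40, 5.36, 3.03 and 5.54 with EP+RU486. All EP+TPA libraries lay above all EP and EP+RU486 libraries. Rtp4 fell by 1.09 with EP (SE 0.32, adjusted p = 0.0163) and rose by 1.51 with EP+TPA against EP (SE 0.32, adjusted p = 0.00407). The fall with EP was lost without EP mouse 322, without sham mouse 326 or without rescaling (adjusted p up to 0.0579), and the rise with EP+TPA held under every alternative run. EP+RU486 against EP gave 0.12. In LM, where it gave no call, Rtp4 was 8.83, 3.36, 7.37 and 9.16 in sham, 4.63, 3.57 and 10.2 with EP, 23.4, 9.69, 1.92 and 6.6 with EP+TPA and 5.27, 16.2, 9.94 and 7.27 with EP+RU486.

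Ifi27, an interferon-induced membrane protein, was 94.4, 95.9, 112 and 96.7 in LP sham, 48.2, 80.1, 58.6 and 42.6 with EP, 135, 114, 99.2 and 163 with EP+TPA and 55.7, 67.3, 59.6 and 83.2 with EP+RU486. Sham lay above EP, and EP+TPA above both EP and EP+RU486, without overlap. It fell by 0.82 with EP (SE 0.19, adjusted p = 0.00372) and rose by 1.16 with EP+TPA against EP (SE 0.19, adjusted p = 0.00058), and both calls held under every alternative run. In LM it was 75.5, 76.4, 74.1 and 77.3 in sham, 54.9, 65.0 and 69.9 with EP, 184, 103, 62.7 and 144 with EP+TPA and 75.7, 118, 117 and 123 with EP+RU486. The LM differences against EP were 0.85 with EP+TPA (adjusted p = 0.0873) and 0.75 with EP+RU486 (adjusted p = 0.0723).

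The OAS enzymes make oligoadenylates that switch on RNase L, and Oasl1 and Oasl2 are OAS-like proteins. Oasl1 was 1.34, 1.59, 2.42 and 2.05 in LP sham, 0.604, 0.747, 0.261 and 0.698 with EP, 1.39, 0.720, 0.812 and 2.70 with EP+TPA and 0.125, 0.442, 0.922 and 0.722 with EP+RU486. Against sham it fell by 0.85 with EP (SE 0.23, adjusted p = 0.00933) and by 0.89 with EP+RU486 (SE 0.23, adjusted p = 0.0205), without overlap in either. The first call held under every alternative run, and the second was lost without EP+RU486 mouse 304 or 308 or without sham mouse 310 or 326 (adjusted p up to 0.0733). Oasl2 was 2.68, 3.91, 4.54 and 7.96 in sham, 1.44, 2.90, 1.30 and 2.48 with EP, 5.94, 2.94, 4.54 and 4.94 with EP+TPA and 1.499, 2.40, 1.51 and 2.68 with EP+RU486. Its EP+TPA libraries lay above all EP and EP+RU486 libraries. Oasl2 fell by 0.89 with EP (adjusted p = 0.0147), rose by 0.89 with EP+TPA against EP (adjusted p = 0.0238) and fell by 0.88 with EP+RU486 against sham (adjusted p = 0.0391). For Oasl2 the fall with EP was lost without EP mouse 322, without sham mouse 326 or without rescaling (adjusted p up to 0.0564), the rise with EP+TPA without EP mouse 306 or 322, without EP+TPA mouse 312 or 328 or without rescaling (adjusted p up to 0.0795), and the fall with EP+RU486 without EP+RU486 mouse 304, 308 or 324, without sham mouse 305, 310 or 326, without rescaling or without a filter on low values (adjusted p up to 0.115).

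Oas1g was 1.17, 1.60, 1.34 and 2.13 in LP sham, 0.347, 1.17, 0.580 and 1.10 with EP, 2.42, 1.38, 1.73 and 3.37 with EP+TPA and 0.485, 0.929, 0.450 and 0.716 with EP+RU486. It rose by 0.83 with EP+TPA against EP (SE 0.20, adjusted p = 0.00798), without overlap. Its near copy Oas1a gave 0.85 there (adjusted p = 0.0627), and fell by 1.001 with EP+RU486 against sham (adjusted p = 0.0441); its range was 3.83 to 6.73 in sham and 1.33 to 3.48 with EP+RU486. The Oas1g call was lost in a fit of the 2 groups alone (adjusted p = 0.0572), and the Oas1a call without sham mouse 301, 305, 310 or 326, without EP+RU486 mouse 304, 308 or 324, without rescaling or without a filter on low values (adjusted p up to 0.132). Oas2 did not pass the filter on low values in LM or LP. It lay at 0.267 to 0.921 in LP with EP+TPA and at 0.118 to 0.323 in the other LP libraries.

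**Figure D3:**
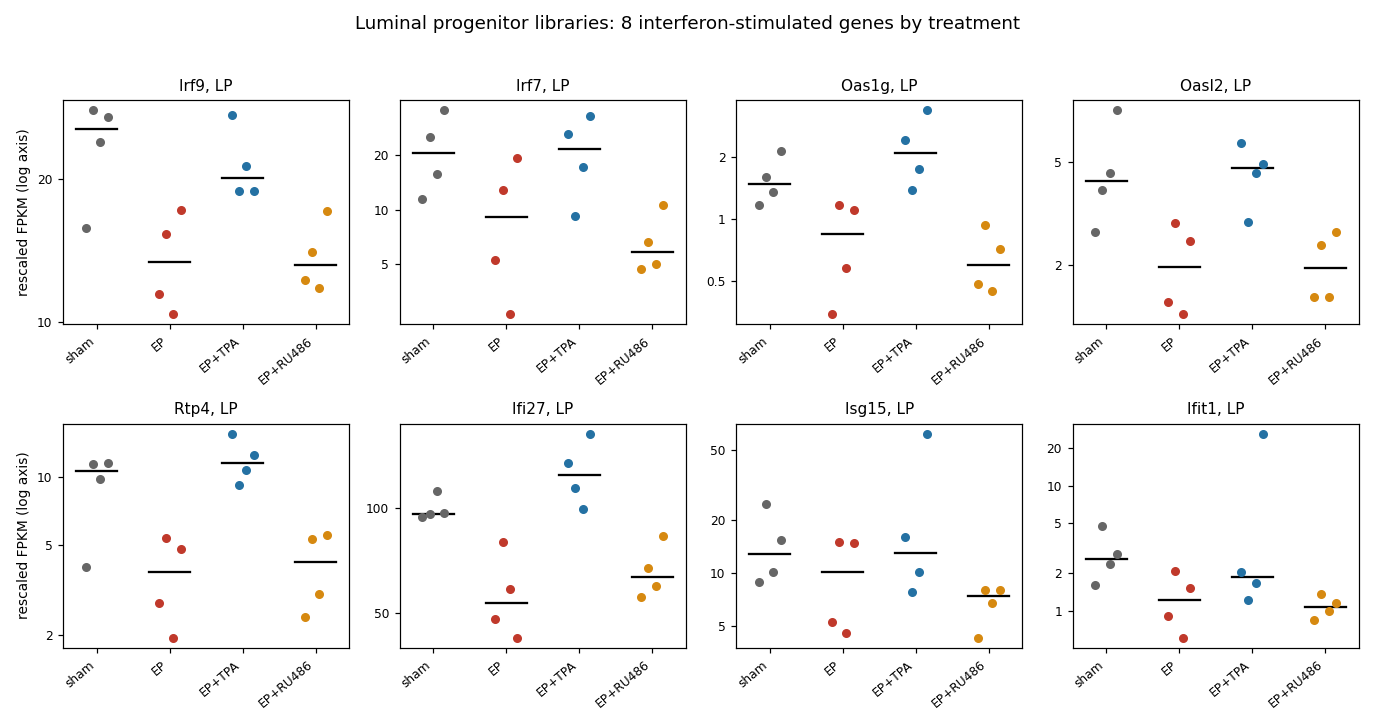
Rescaled FPKM on log axes of 8 members in the 16 LP libraries by treatment; points are libraries of separate mice and bars are medians. For Rtp4 the EP+TPA libraries (9.26 to 15.6) lie above all EP and EP+RU486 libraries, while for Ifit1 the EP+TPA library of mouse 336 lies at 26.0, apart from the other 3.

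The genes around Isg15 differed among themselves. Isg15 is conjugated to proteins, and it was called in no treatment comparison. In LP it was 8.93, 24.7, 10.2 and 15.4 in sham, 5.33, 15.1, 4.62 and 14.9 with EP, 16.02, 7.86, 10.2 and 61.7 with EP+TPA and 4.33, 8.05, 6.83 and 7.997 with EP+RU486. All 4 EP+RU486 libraries lay below all 4 sham libraries, and the other groups overlapped. In LM it was 14.7, 11.8, 13.0 and 17.97 in sham, 10.3, 16.8 and 13.1 with EP, 37.0, 13.6, 10.1 and 26.2 with EP+TPA and 10.1, 15.3, 17.2 and 18.6 with EP+RU486.

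Usp18, which removes Isg15 from proteins and restrains the interferon receptor, fell with mifepristone in both luminal fractions. In LM it was 10.2, 3.09, 7.74 and 7.51 in sham, 5.42, 24.5 and 4.93 with EP, 4.78, 2.31, 3.18 and 3.32 with EP+TPA and 1.68, 2.25, 2.32 and 1.98 with EP+RU486. The EP+RU486 libraries lay below all sham and all EP libraries. Usp18 fell by 1.70 against EP (SE 0.43, adjusted p = 0.0154) and by 1.33 against sham (SE 0.40, adjusted p = 0.0287). The first call was lost without EP mouse 311 (adjusted p = 0.0512), and the second without sham mouse 305, 310 or 326 or without EP+RU486 mouse 308, 313, 329 or 333 (adjusted p up to 0.0754). In LP it was 2.52, 8.42, 3.20 and 7.53 in sham, 6.22, 3.57, 8.72 and 12.9 with EP, 5.25, 2.30, 3.92 and 14.9 with EP+TPA and 1.44, 2.05, 1.05 and 1.79 with EP+RU486. The EP+RU486 libraries lay below the other 12, and Usp18 fell by 1.68 against EP (SE 0.45, adjusted p = 0.0155). That call was lost without EP mouse 327 (adjusted p = 0.0519).

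Trim25, a ubiquitin ligase that acts on RIG-I, was 3.15, 4.17, 3.99 and 4.38 in LP sham, 5.65, 5.05, 5.72 and 7.22 with EP, 5.09, 4.12, 5.17 and 4.99 with EP+TPA and 3.06, 4.51, 3.69 and 3.68 with EP+RU486. EP lay above sham and above EP+RU486 without overlap. It rose by 0.49 with EP (SE 0.13, adjusted p = 0.00829) and fell by 0.54 with EP+RU486 against EP (SE 0.13, adjusted p = 0.00685), both under every alternative run. In LM it was 1.58, 4.77, 5.996 and 6.68 in sham, 6.78, 13.3 and 8.06 with EP, 8.25, 4.25, 6.36 and 3.27 with EP+TPA and 4.01, 3.86, 5.32 and 4.99 with EP+RU486, with an adjusted p of 0.0778 for EP against sham.

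Adding mifepristone to EP in LM raised 1 of 32 members, Ifit2, and lowered Bst2 and Usp18, against 17.9% of all genes called, 8.32% higher and 9.56% lower. The median over the members was 0.25, with 26 of 32 above 0. Without mouse 332 in the fit, 5 rose and 2 fell, against 23.9% of genes. Endothelial markers summed to 190 to 257 with EP and 299 to 514 with EP+RU486, without overlap, and their part was not tested. Ifit2, which binds viral RNA, was 2.41, 1.95, 1.65 and 1.56 in sham, 0.422, 0.755 and 0.356 with EP, 1.43, 1.94, 0.0445 and 0.496 with EP+TPA and 3.58, 1.95, 2.77 and 1.79 with EP+RU486. EP lay below sham and below EP+RU486 without overlap. Ifit2 fell by 0.94 with EP (SE 0.30, adjusted p = 0.037) and rose by 1.20 with EP+RU486 against EP (SE 0.30, adjusted p = 0.0128). The fall was lost without sham mouse 305, 301, 310 or 326, without EP mouse 306 or 327, with a pseudocount of 0.1 or without a filter on low values (adjusted p up to 0.139), and the rise held under every alternative run.

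Its relative Ifit1 was called in no treatment comparison. In LM it was 2.51, 2.59, 2.11 and 3.17 in sham, 1.73, 3.51 and 1.45 with EP, 5.74, 3.62, 1.18 and 2.51 with EP+TPA and 2.95, 3.71, 4.33 and 2.55 with EP+RU486. In LP it was 1.60, 4.74, 2.38 and 2.84 in sham, 0.918, 2.10, 0.613 and 1.52 with EP, 2.06, 1.23, 1.66 and 26.0 with EP+TPA and 0.845, 1.36, 1.004 and 1.15 with EP+RU486, where the EP+TPA library of mouse 336 stood far above the other 3. Ifit3, whose values may mix with Ifit3b, lay at 0.698 to 2.67 in LM and 0.259 to 4.57 in LP, without a call.

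Adding telapristone to EP in LM lowered 1 of 32 members, Bst2, and raised 0, against 4.52% of genes called, 1.32% higher and 3.2% lower. At an unadjusted p under 0.05, 3 were higher and 2 lower, against 22% of genes. Without mouse 332, 5 members rose and Bst2 fell, against 18.7% of genes called: Irf7 rose by 1.53 (0.00267), Ifi44 by 1.65 (0.00252), Ifi27 by 1.14 (0.00202), Dhx58 by 1.16 (0.0175) and Zbp1 by 1.07 (0.049), with adjusted p in parentheses. The count was 0 without EP mouse 306 or 311 and without EP+TPA mouse 312, 328 or 336. Fewer of all genes were called in the fit without mouse 312 too, 1.79%. The median over the members was 0.17 with all libraries, 0.41 without mouse 332 and -0.06 without mouse 312. Progenitor markers summed to 230 in mouse 332, against 173 to 512 with EP, and proliferation markers to 56.4, against 34.0 to 83.2. The leukocyte markers summed to 2.59 in mouse 332, 14.9 in mouse 328, 69.3 in mouse 312 and 91.7 in mouse 336, against 7.98 to 24.1 with EP. Their part in these values was not tested.

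Against sham in LM, EP+TPA lowered Stat2, Irf1 and Ifi35 and raised 0 (16.1% of genes called, 6.87% higher and 9.27% lower). Without mouse 332 it lowered Stat2 and Irf1 and raised Parp9, Ifi27 and Ifi44 (16.4% of genes called), and without mouse 312 it lowered 5 members (12.8%). EP+RU486 lowered Stat2, Irf1, Ifi35 and Usp18 and raised Parp9 (21.7% of genes called, 9.74% higher and 11.9% lower). The count of 5 fell to 2 without EP+RU486 mouse 308 or sham mouse 326, and to 3 without sham mouse 310 or EP+RU486 mouse 329, with 14.2% to 20.1% of genes called over the fits that left out 1 library. Ifi35 fell by 0.65 (adjusted p = 0.033) and 0.73 (adjusted p = 0.0156) in that order, and its range was 23.3 to 40.2 in sham, 16.5 to 22.0 with EP+TPA and 15.2 to 23.1 with EP+RU486. The call with EP+TPA was lost without sham mouse 305 or 326, without EP+TPA mouse 312, 328 or 332 or in a fit of the 2 groups alone (adjusted p up to 0.0985), and that with EP+RU486 without EP+RU486 mouse 308 or without sham mouse 326 (adjusted p up to 0.0518).

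Parp9, a partner of the ubiquitin ligase Dtx3l, was 5.59, 4.50, 7.53 and 9.69 in LM sham, 13.6, 5.87 and 13.9 with EP, 17.4, 15.6, 7.54 and 9.96 with EP+TPA and 16.6, 20.5, 18.6 and 15.2 with EP+RU486. The EP+RU486 libraries lay above all sham and EP libraries. Parp9 rose by 1.30 with EP+RU486 against sham (SE 0.29, adjusted p = 0.00593), under every alternative run. Its neighbours on chromosome 16, Dtx3l and Parp14, gave 0.86 (adjusted p = 0.101) and 0.41 (adjusted p = 0.285). In LP, Parp9 was 6.72, 10.6, 9.30 and 10.7 in sham, 13.2, 11.5, 8.38 and 8.14 with EP, 15.6, 13.1, 17.7 and 11.9 with EP+TPA and 11.1, 17.5, 11.6 and 15.4 with EP+RU486. Both antagonist groups lay above sham there without overlap, with adjusted p of 0.0819 and 0.0875.

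Against sham in LP, EP+TPA gave 0 calls among 31 members (5.1% of genes called, 1.8% higher and 3.3% lower), and 2 members at an unadjusted p under 0.05 against 18.7% of genes. The median was 0.20, and Parp9 had the smallest adjusted p, 0.0819. EP+RU486 lowered 5 of 31 (Oas1a, Oasl1, Oasl2, Irf1 and Irf9) and raised 0, against 10.6% of genes called (4.24% higher and 6.38% lower), with a median of -0.56 and 26 of 31 below 0. Without rescaling, 1 rose and 1 fell, against 15% of genes. At an unadjusted p under 0.05, 16 were lower and 1 higher, against 25.6% of genes. The count of 5 fell to 0 without sham mouse 310, to 1 without sham mouse 326 or EP+RU486 mouse 304 or 308, and to 2 without sham mouse 305 or EP+RU486 mouse 324, with 5.74% to 9.23% of genes called over the fits that left out 1 library.

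Telapristone and mifepristone were compared directly in each of the 3 fractions. Doses are not in the labels, so the groups may differ in dose as well as compound. In LP, values were higher with EP+TPA than with EP+RU486 in 30 of 31 members, with a median difference of 0.61 against 0.01 over all genes. The test called 0 members and 0% of all genes, with an adjusted p of 1 for every member. At an unadjusted p under 0.05, 18 members were higher with EP+TPA and 0 lower, against 1.75% of all genes in either direction. The groups of 4 did not overlap for 9 members, all higher with EP+TPA, against 0.605% of genes in that direction. The 9 were Rtp4, Usp18, Oas1a, Oas1g, Ifi27, Oasl2, Bst2, Irf9 and Irf1.

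The LP differences between the antagonists, with 95% intervals, were 1.39 (0.71 to 2.07) for Rtp4, 1.31 (0.35 to 2.27) for Usp18, 1.25 (0.61 to 1.89) for Oas1a and 0.94 (0.52 to 1.36) for Oas1g. They were 1.46 (0.36 to 2.55) for Irf7, 1.24 (0.09 to 2.39) for Isg15, 0.92 (0.52 to 1.33) for Ifi27 and 0.87 (0.35 to 1.39) for Bst2. Ifih1 gave 0.04 (-0.20 to 0.28), Parp9 0.07 (-0.32 to 0.47) and Eif2ak2, the member below 0, -0.17 (-0.50 to 0.16). Without mouse 336, the highest LP library, 30 of 31 members were above 0 with a median of 0.36, and 11 had an unadjusted p under 0.05 against 0.959% of genes. Over the fits that left out 1 library that number ran from 11 to 21, against 0.959% to 2.92% of genes. Leukocyte markers summed to 10.03 to 20.1 with EP+TPA and 13.6 to 66.2 with EP+RU486. Endothelial markers summed to 112 to 214 and 102 to 153 in that order, with the highest sum in mouse 336. The part of either list in the differences was not tested. A member called against EP with 1 antagonist and not the other is thus not shown to differ between them at the adjusted threshold.

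**Figure D4:**
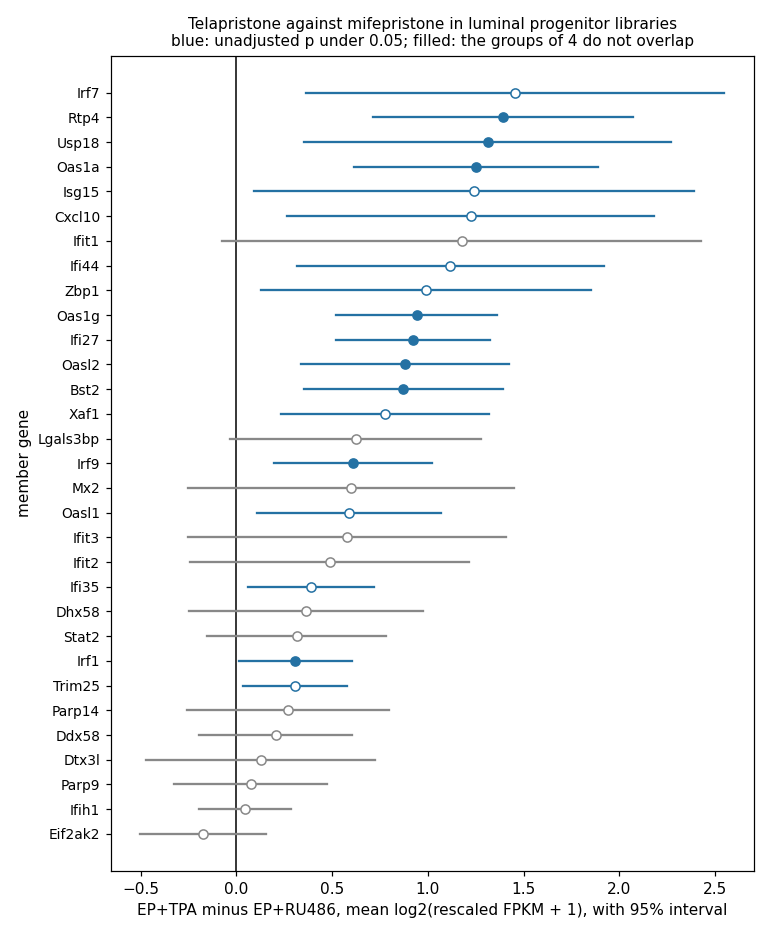
EP+TPA minus EP+RU486 in LP for 31 members (rows), as differences of mean log2(rescaled FPKM + 1) with 95% intervals (horizontal axis); blue marks an unadjusted p under 0.05 and filled points mark groups that do not overlap. All points but Eif2ak2 lie to the right of 0, and no member passed the adjusted threshold.

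In LM the same comparison called 0 of 32 members and 0% of genes, with a smallest adjusted p of 0.322. At an unadjusted p under 0.05, 4 members differed, against 13.4% of genes. The differences were -0.92 (-1.50 to -0.34) for Ifit2, -0.84 (-1.61 to -0.08) for Dtx3l, -0.79 (-1.35 to -0.23) for Parp14 and 0.72 (0.17 to 1.27) for Bst2. The median over the members was -0.14, and it was 0.15 without mouse 332. In MSC, 0 of 33 members were called and 0 had an unadjusted p under 0.05, against 0% and 1.61% of genes. The MSC intervals were wide, -2.07 to 3.47 for Isg15 and -2.29 to 2.72 for Bst2, and narrower for Ifi27, -0.28 to 0.76.

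In MSC, limma called 0 members and 0% of all genes in each of the 6 treatment comparisons. Members with an unadjusted p under 0.05 numbered 0 to 2 of 33, against 5.31% of genes for EP against sham and 1.61% to 7% in the other comparisons. The spread within groups was wide. Bst2 was 51.1, 58.5, 14.2 and 52.4 in sham and 111, 82.7, 31.7 and 0 with EP. Irf7 was 12.8, 10.4, 9.17 and 11.8 in sham and 39.8, 42.9, 5.79 and 2.77 with EP. The highest and the lowest MSC library for the list as a whole were both EP libraries, of mice 306 and 327. Without mice 326 and 327, 0 members were called, and 0 to 7 had an unadjusted p under 0.05. The share of all genes at that threshold without these mice is not given here, so that count is not read as a result about the members. The basal markers, which should define this fraction, summed to 5.53 to 8253. The basal keratin gene Krt14 was at 0 in EP+RU486 mice 313 and 329 and EP+TPA mouse 328, and at 2.58 in EP+TPA mouse 312, so the label was not borne out by it in those 4 libraries, where the basal sums were 5.53, 373, 190 and 88.7. The sums of EP mouse 311 (345) and sham mouse 310 (409) were also low. Endothelial markers summed to 0 to 1346, with 1346 in EP mouse 306, 0 in EP mouse 327 and 34.8 in sham mouse 326. The part of these markers in the spread was not tested.

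**Figure D5:**
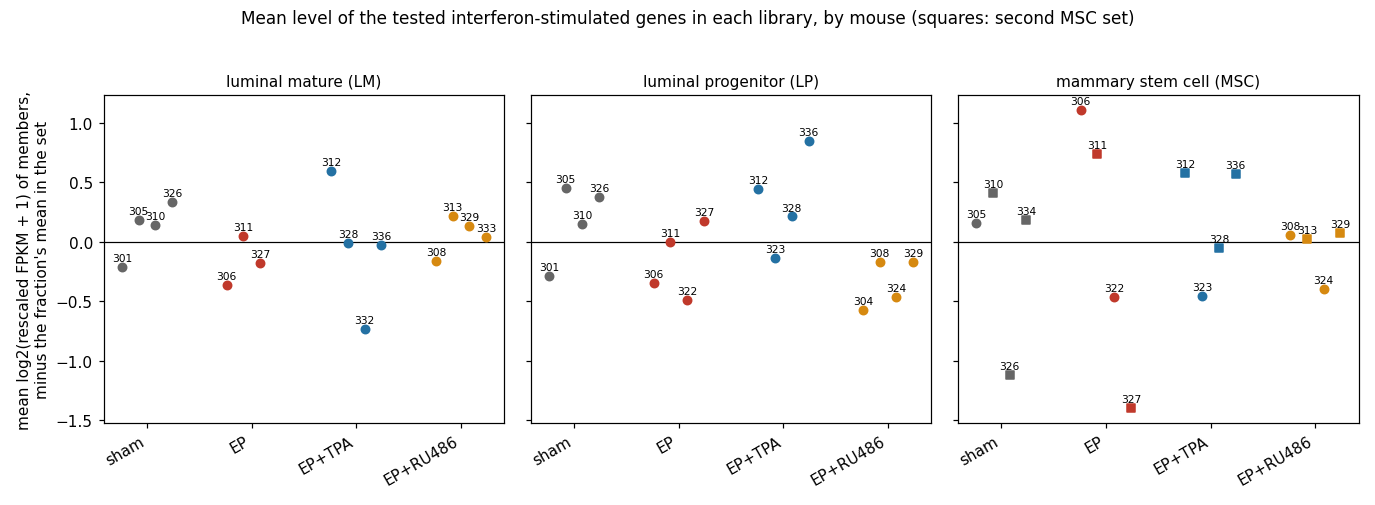
Mean log2(rescaled FPKM + 1) of the members tested in each library, minus the mean of its fraction's libraries in the same set (vertical axis), by treatment and fraction, with mouse numbers; squares are the second set of MSC libraries. LM mouse 332 lies at -0.73 and LP mouse 336 at 0.85, and MSC runs from -1.40 (mouse 327) to 1.11 (mouse 306).

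For mice that gave more than 1 fraction, the side of the mean was compared between fractions, and ranks were not. The mean level of the members lay on the same side of its fraction's mean within the set in LM and LP for 7 of 12 mice, in LM and MSC for 8 of 12, and in LP and MSC for 7 of 14. Mouse 336 lay at 0.85 in LP, 0.57 in MSC and -0.02 in LM, and mouse 312 above the mean in all 3 fractions. Some sides rest on levels near 0, such as -0.001 for mouse 311 in LP and -0.012 for mouse 328 in LM. Each mouse had 1 treatment, so mouse and treatment cannot be told apart in these counts.

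MSC and LP were compared within 1 set, in 6 mice that gave both. The main fit took both libraries of a mouse as independent, so its p-values ignore the pairing. Expression was higher in MSC for 6 of 32 members and lower for 1, against 39.2% of 11918 genes called, 22.7% higher and 16.5% lower. Other markers moved with this comparison: 7 of 8 endothelial markers were higher in MSC (median 2.07), and 4 of 6 fibroblast markers were higher and 1 lower (median 1.16). Their part in the members' differences was not tested. Cxcl10, a chemokine that attracts T cells, was 10.7 to 63.8 (median 20.4) in MSC and 2.78 to 13.8 (median 3.59) in LP, and was higher in MSC in 6 of 6 mice, by 2.15 (SE 0.37, adjusted p = 0.00185). Irf1 was 49.3 to 226 (median 88.3) in MSC and 29.9 to 54.5 (median 33.2) in LP, higher in 6 of 6 mice by 1.35 (adjusted p = 0.00828). Isg15 was higher in 5 of 6 by 1.36 (adjusted p = 0.0291), Ifi27 in 6 of 6 by 0.77 (adjusted p = 0.017) and Stat2 in 6 of 6 by 0.78 (adjusted p = 0.0453). Parp9 was lower in all 6 mice by 0.71 (adjusted p = 0.0383), and Dtx3l was lower in all 6 with an adjusted p of 0.0732. With the mouse as a block, Dtx3l and Xaf1 were called too, against 38.8% of genes. Ifi35 was higher by 0.57 (adjusted p = 0.0362), and without rescaling the difference was -0.02. The call for Isg15 was lost without mouse 308, 322 or 324, without rescaling or without a filter on low values (adjusted p up to 0.118), for Ifi27 without mouse 322 or 324 or without rescaling (adjusted p up to 0.575), for Stat2 without mouse 305, 308 or 324, without rescaling or without a filter on low values (adjusted p up to 0.347), for Parp9 without mouse 305, 308, 323 or 324 or without a filter on low values (adjusted p up to 0.107) and for Ifi35 without mouse 305, 306, 308, 323 or 324, without rescaling or without a filter on low values (adjusted p up to 0.94). Without rescaling, 1 was higher and 3 lower in MSC, against 59.1% of genes. The count of 7 fell to 2 without mouse 324, to 3 without mouse 308 and to 4 without mouse 305, with 27.6% to 38% of genes called over the fits that left out 1 mouse.

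Other genes of the pathway came from lists of 101 genes, 98 of them in the table. Of the interferon genes themselves, 0 of the 10 found passed the filter. With EP, 4 of 81 pathway genes tested rose and 16 fell in LM, and 9 of 79 rose and 13 fell in LP. Over all genes 10.3% higher and 9.17% lower were called in LM, and 16.2% higher and 16.1% lower in LP. In LM and LP, with adjusted p in parentheses, the class I light chain gene B2m rose by 1.90 (0.00485) and 1.62 (0.00324), and the schlafen gene Slfn9 by 2.20 (0.000665) and 1.44 (0.000733). Uba7, the enzyme that activates Isg15, fell by 1.13 (0.012) and 0.96 (0.000877), and the adaptor Myd88 by 1.11 (0.0064) and 1.08 (0.000366). In LM the membrane protein gene Ifitm3 fell by 1.73 (0.00158) and Ube2l6, the Isg15-conjugating enzyme, by 1.63 (0.00286).

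Of 13 antigen presentation genes tested, EP+RU486 lowered 6 in LM and 7 in LP against EP, where 9.56% and 11.8% of all genes were lower. EP+TPA lowered 3 in each, where 3.2% and 10.6% were lower, and neither compound raised any. With EP against sham, 1 rose and 3 fell in LM, and 4 rose and 1 fell in LP. Against sham in LM, EP+TPA lowered 7 and EP+RU486 lowered 8, where 9.27% and 11.9% of all genes were lower. Against sham in LP, EP+RU486 lowered 2, where 6.38% of all genes were lower, and EP+TPA gave 0 calls. Neither compound raised any against sham. Against EP, in LM and LP, B2m fell by 2.67 (0.00112) and 2.06 (0.00108) with EP+RU486, and by 2.02 (0.0104) and 1.69 (0.00429) with EP+TPA. Psmb8, an immunoproteasome subunit, fell by 0.91 (0.00576) and 0.98 (0.000891) with EP+RU486, and by 0.74 (0.0393) and 0.58 (0.0265) with EP+TPA. Tap2, a peptide transporter, fell by 1.16 (0.00807) and 0.80 (0.0026) with EP+RU486, and by 1.05 (0.035) and 0.67 (0.00869) with EP+TPA. The exonuclease gene Isg20 fell in LM by 2.67 (0.000521) with EP+RU486 and by 1.89 (0.00671) with EP+TPA. Of 40 other interferon-induced genes tested in LM, EP+RU486 against EP raised 7 and lowered 3, and EP+TPA raised 0 and lowered 2. Of 38 in LP, EP+RU486 raised 1 and lowered 3, and EP+TPA raised 2 and lowered 1. In LM, 8.32% of all genes were higher and 9.56% lower with EP+RU486, and 1.32% and 3.2% with EP+TPA. In LP these shares were 9.02% and 11.8%, and 7.79% and 10.6%. In the direct comparison of the antagonists, 0 of these pathway genes were called in LM or LP.

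The members not yet described gave few calls. Ifi44 rose in LP by 1.17 with EP+TPA against EP (adjusted p = 0.0419); its range was 0.730 to 4.68 with EP and 2.96 to 7.74 with EP+TPA. That call was lost without EP mouse 306 or 322, without EP+TPA mouse 312, 328 or 336, without rescaling, without a filter on low values or in a fit of the 2 groups alone (adjusted p up to 0.133). Mx1, an antiviral GTPase, did not pass the filter in any fraction, and its highest LP value was 0.87. Its relative Mx2 lay at 0.329 to 6.89 in LP. Rsad2 (viperin) did not pass the filter in LP, where it reached 10.3. Xaf1 lay at 0.689 to 3.82 and the secreted protein gene Lgals3bp at 16.2 to 63.1 in LP. Over the 18 treatment comparisons 19 members gave 45 calls, of which 16 held under every alternative run. In the comparisons that gave these calls, 3.12% to 29% of the members tested and 4.52% to 32.4% of all genes were called.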

How the data were processed

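RNA of 47 sorted mammary libraries was measured by sequencing. The deposited values were taken to be FPKM per gene, adjusted by the authors; the unit was inferred from the values and the tools named. The submitters' processing notes name STAR, Cufflinks, DESeq2 and mm9, in no stated order, and the deposited table is described as read counts although its values are not whole numbers. Libraries of 1 set share many identical values (1382 to 6488 per pair, and 0 between sets), and over 11008 genes the means of the 3 sets differ by a median of 0.0407 on the log2 scale. The sets were inferred from this, and LM was therefore not compared with the other fractions. Read depth is unknown, so no interval for counting error is given, and a value at 0 is not evidence of absence.

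Of 22007 symbols, 27 that a spreadsheet had turned into dates were left out. Values were rescaled within each set by median ratios. Genes at 1 or more in at least 3 libraries, and above the shared lowest value in at least 3, were fitted as log2(value + 1) with limma 3.58.1 (R 4.3.3), with a mean-variance trend and robust variances, all 4 treatments of a fraction together, and with a set term in MSC. Adjusted p-values are Benjamini-Hochberg over all genes tested, and the script was tested on simulated data. Figures used Python 3.11.15 and matplotlib 3.10.9.

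Mouse numbers from the labels pair fractions of 1 animal, and treatments share no mouse. In the treatment comparisons replicates are separate mice, so p-values measure the spread between mice. The main fit of MSC against LP had a treatment term and no mouse term. It took both libraries of a mouse as independent, so its p-values ignore the pairing. The members and all gene lists were chosen with earlier results of these data known. Values in every library are given for 17 members: up to 14 called members with the smallest adjusted p in any of the 18 treatment comparisons, and always Isg15, Irf7, Stat2, Irf9, Bst2 and Ifit1. Pathway genes were named from those called, by smallest p. Alternatives were a pseudocount of 0.1, values as deposited, no filter, library weights, fits of 2 groups only, the larger MSC set only, the mouse as a block, and each library left out.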

Additional observations from a re-analysis of the deposited data

Results flagged for a closer look

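In 198 groups of 4 libraries, the highest or lowest library was tested for a gap to the others that was large against the group's range, and 14 stood apart. For independent groups of normally distributed values about 1 in 20 would stand apart. The gene values here were not on a log scale and the groups share libraries, so 14 of 198 is not compared with that rate. In LP with EP+TPA, mouse 336 stood above the other 3 for Ifit1 (26.0 against 1.23 to 2.06), Isg15 (61.7 against 7.86 to 16) and Ifit2 (6.41 against 0.934 to 1.49). In the same group mouse 323 was low for Trim25 (4.12 against 4.99 to 5.17). In LP sham, mouse 310 was high for Ifi27 (112 against 94.4 to 96.7).

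In LM, Stat2 was low in sham mouse 301 (3.84 against 6.87 to 7.34) and high in EP+RU486 mouse 313 (3.56 against 2.42 to 2.59). Ifi27 was low in LM EP+RU486 mouse 308 (75.7 against 117 to 123). In MSC sham, mouse 326 was low for Bst2 (14.2 against 51.1 to 58.5), for Ifi27 (77.4 against 107 to 110) and for the mean log2 level of the members (-1.12 against 0.16 to 0.41). In MSC with EP, mouse 306 was high for Irf1 (226 against 37.7 to 55.4). In MSC with EP+RU486, mouse 308 was high for Oasl1 (1.12 against 0.59 to 0.626), and mouse 324 was low for the mean log2 level (-0.40 against 0.03 to 0.08). Of 564 pairs of fractions checked for a treatment difference in opposite directions in every library, 0 were found.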

How the results depend on the processing

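Each number of members called is followed, where given, by the percent of all genes called in the same fit. With library weights it was, in LM, 11 (36.2%) for EP against sham, 7 (21.1%) for EP+TPA against EP, 7 (29.2%) for EP+RU486 against EP, 8 (30.5%) for EP+TPA against sham and 9 (42.6%) for EP+RU486 against sham. In LP it was 17 (43.7%), 1 (12.8%) and 17 (23.2%) for EP, EP+TPA and EP+RU486 against sham, and in MSC 6 (8.96%) for EP against sham. Fits of 2 groups only called 0 (0.018%) (EP+TPA against EP) and 10 (24.6%) (EP+RU486 against EP) in LM, and 3 (8.29%) (EP+TPA against EP) and 12 (18.5%) (EP+RU486 against sham) in LP. Without a filter on low values it was 0 (2.39%) for EP+TPA against EP in LM, 3 (5.86%) for EP+RU486 against sham in LP and 3 (21.7%) for MSC against LP. With values as deposited it was 5 (23.4%) (EP+TPA against EP) and 2 (15%) (EP+RU486 against sham) in LP, and 4 (59.1%) for MSC against LP, where the difference of Ifi35 reversed to -0.022 (limma adjusted p = 0.94). As deposited, the median of all genes shifted by more than 0.1 in several comparisons, to 0.25 for EP against sham in LP and to -0.25 for EP+TPA against EP in MSC, where the median of the members went from 0.07 to -0.13. Alternatives chosen after seeing the data gave 7 (23.9%) for EP+RU486 against EP in LM without mouse 332, 9 (12.3%) for EP+RU486 against sham in LP without mouse 336, and 0 in MSC without mice 326 and 327. Leaving out 1 library at a time gave, in LM, 1 to 8 (EP against sham), 0 to 6 (EP+TPA against EP), 2 to 4 (EP+RU486 against EP), 0 (EP+TPA against EP+RU486), and 2 to 5 for each antagonist against sham. In LP it gave 7 to 13, 3 to 11, 3 to 5, 0, 0 (EP+TPA against sham) and 0 to 6 (EP+RU486 against sham), in MSC 0, and for MSC against LP 2 to 7. The percent of all genes called moved with the library left out too. For EP+TPA against EP in LM it was 1.79% without mouse 312 and 18.7% without mouse 332. These ranges are therefore not read as particular to the members. With the mouse as a replicate block, MSC against LP gave 9 calls (38.8%) in place of 7 (39.2%). Between treatments no paired analysis was possible because each treatment was given to different mice. The cause of these shifts was not tested, and the unknown depth limits what can be said of members near 0.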
